A study of Mus musculus with 6 samples.

Results

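Potassium channel genes were followed in bulk RNA sequencing of the mouse substantia nigra, whose compacta contains dopaminergic neurons and whose reticulata contains fast-firing GABAergic neurons. The members are all protein-coding genes of the mouse annotation whose symbol starts with Kcn and a lower-case letter, which gave 94 of the 55335 genes in the files. Another 5 Kcn symbols belong to antisense transcripts and were left out. There were 3 libraries of C57 mice titled WT, called control here, and 3 of C57 mice titled shDNAJB1, which stands for a hairpin RNA (shRNA) aimed at Dnajb1, an HSP40 co-chaperone gene. The labels give no age, vector, injection site or control hairpin, and they leave unsaid if each library is a different animal; a p-value here therefore refers to the spread among 6 samples, some of which may be technical. The series asked which transcripts of this tissue change after knockdown of Dnajb1.

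Potassium channels set the resting potential of a neuron, end its action potentials and set the gap to the next one. Voltage-gated Kv channels open on depolarization. Kv1 channels sit on axons, next to the nodes of myelinated fibres, and limit repetitive firing, while Kv3 channels close quickly and let fast-spiking neurons fire at high rates. KCNQ channels carry the M-current that muscarinic receptors switch off. KCa channels respond to internal calcium or, in the Kcnt genes, to internal sodium, and Kir channels pass current near rest and include the glial channel that takes up potassium around active neurons. K2P channels give the background leak. Accessory subunits such as the Kvbeta, KChIP and KCNE proteins change the transport and gating of the pores.

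Total gene counts were between 24541386 and 38468363 per library, and 81 of the 94 members passed the filter on low counts, among 18870 genes that passed in all. Dnajb1 itself was at 59.8, 47.2 and 51.9 CPM (counts scaled to the library size) in control 1, 2 and 3 and at 44.3, 52.4 and 52.5 CPM in shDNAJB1 1, 2 and 3. Its log2 fold change was -0.09 (SE 0.13), with adjusted p = 0.909 in edgeR's quasi-likelihood test and p = 0.6 by a two-sided exact permutation test, where 3 against 3 cannot go below 0.1. The target was not detectably lower, and so the second group is named below by its label only. The libraries differed in neuronal markers. Summed over a list of 8 genes, GABAergic markers were at 1174 to 1490 CPM of all counts in controls and at 1765, 796 and 292 CPM in shDNAJB1 1, 2 and 3. Forebrain and glutamatergic markers, a list of 6, were at 338 to 551 CPM in controls and at 169, 551 and 863 CPM in the same 3 libraries. The libraries shDNAJB1 1 and shDNAJB1 3 thus stood at opposite ends of both lists. Dopaminergic markers, a list of 10, were at 1278, 3337 and 1474 CPM of all counts in control 1, 2 and 3. They were at 2563, 2083 and 980 CPM in shDNAJB1 1, 2 and 3.

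The substantia nigra libraries held transcripts of all 5 channel families. To compare genes with each other, CPM was divided by the length of the merged exons in kilobases, and this level per kilobase is used wherever genes or families are ranked. In controls the members summed to 755 ± 52.0 CPM per kilobase (SD, n = 3). Kv genes made up 42.2% of that sum, accessory subunits 20.1%, Kir 19.8%, K2P 8.71%, KCa 4.98% and KCNQ 4.16%. The highest control mean belonged to Kcnj10, the inward rectifier of astrocytes and oligodendrocytes, at 89.1 ± 15.5 CPM per kilobase. Kcnab2, the main Kvbeta subunit of axonal Kv1 channels, followed at 67.5 ± 6.496 CPM per kilobase. This order depends on the length used: over all 6 libraries Kcnj10 and Kcnab2 averaged 75.7 and 56.1 CPM per kilobase of merged exons, but 75.7 and 79.8 per kilobase of the longest transcript. Kcna2 and Kcnc1, pores of axons and fast-spiking neurons, were also among the high members, at 39.4 ± 5.61 and 34.2 ± 3.38 CPM per kilobase. Their controls overlapped, so this pair cannot be ordered. Of the 13 members that did not pass the filter, none exceeded 12 counts in a library, and Kcne1 had 0 counts in all 6.

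**Figure D1:**
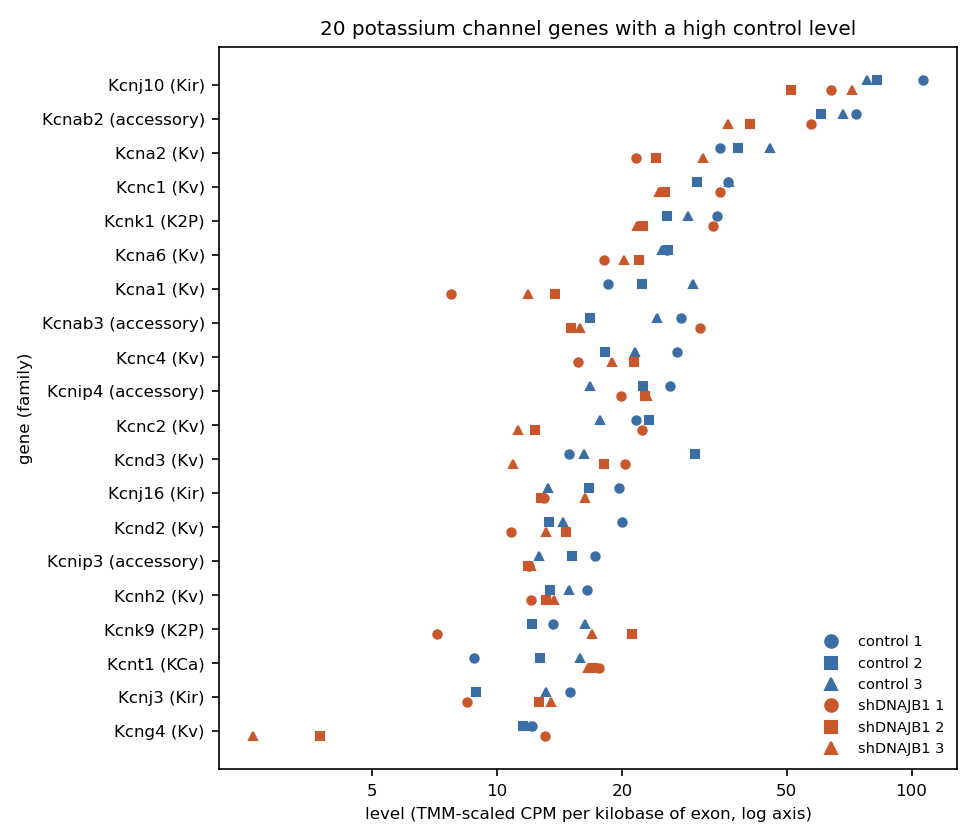
Level of 20 potassium channel genes with a high control mean, in TMM-scaled CPM per kilobase of exon on a log axis, 1 point per library (blue control, orange shDNAJB1, marker shape the replicate number). Kcnj10 and Kcnab2 lead, and Kcna1, Kcna2 and Kcna6 have all 3 shDNAJB1 points to the left of the 3 control points.

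The summed level per kilobase, in which abundant members weigh most, was lower in the libraries labelled shDNAJB1, while 30 of the 81 tested members were higher and none passed the test by edgeR. The members summed to 810, 706 and 749 CPM per kilobase in control 1, 2 and 3 and to 606, 597 and 628 in shDNAJB1 1, 2 and 3, so the groups did not overlap and the second mean was 80.8% of the first. In bulk tissue, fewer cells of a type and less RNA per cell cannot be told apart. Of the 81 tested members, 0 had an adjusted p under 0.05 in edgeR's quasi-likelihood test (0.0% of all genes tested), 0 in limma-voom and 2 in DESeq2's Wald test (0.297% of all genes tested, or 0.105% when all genes with a count entered). At an unadjusted p under 0.05 there were 13 members, or 16.0%, against 6.37% of all genes tested. Of these 13, 11 were lower, where the background for that direction is 3.33%, and 2 were higher, where it is 3.04%. This count depended on single libraries: it was 6 (7.41% of the members, against 4.53% of all genes) without control 1, 8 (9.88% against 3.88%) without shDNAJB1 2 and 28 (34.6% against 12.9%) without shDNAJB1 1, of which 16 were lower and 12 higher. The groups did not overlap for 10 members that were lower, or 12.3% against 7.06% of all genes, and for 2 that were higher, or 2.47% against 6.98%. The median log2 fold change of the members was -0.07, beside 0.01 over all genes, and 51 of 81 were below 0 (63.0% against 49.2%).

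**Figure D2:**
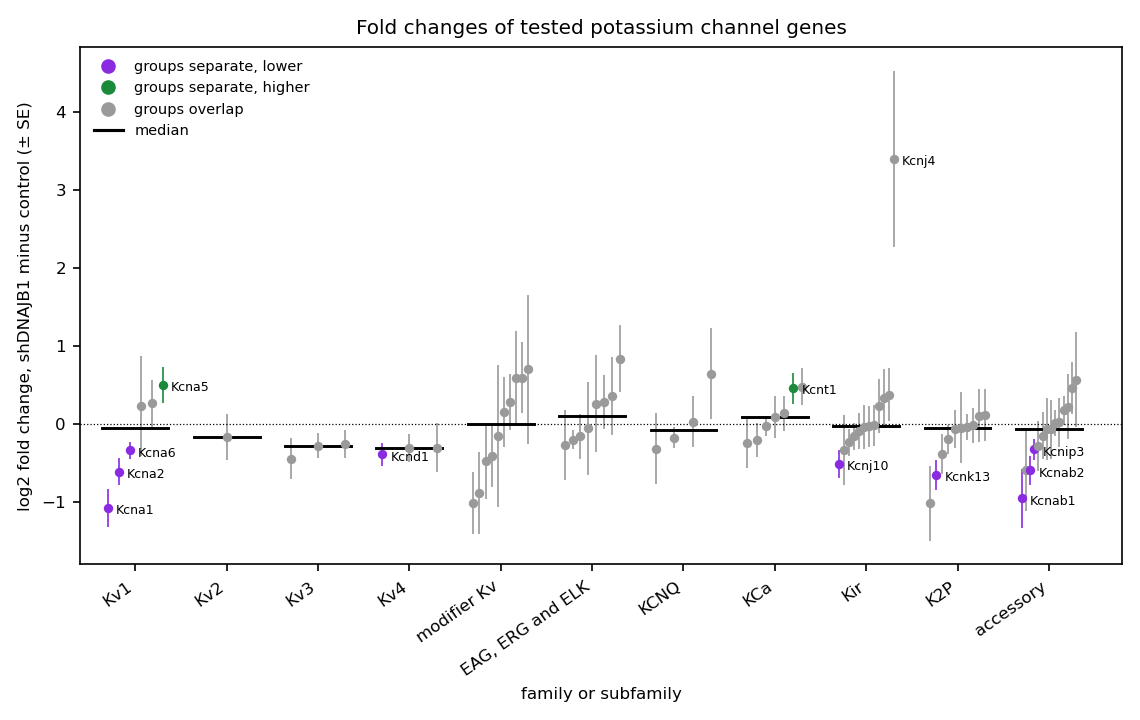
Log2 fold change, shDNAJB1 minus control, with its SE, of 78 of the 81 tested members by family or subfamily, with black bars for the medians of the points shown; colours mark members whose 3 values in one group all lie outside the range of the other. The 9 purple members are lower and the 2 green ones, Kcna5 and Kcnt1, are higher, and Kcnj4 stands alone near 3.40.

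Kv genes summed to 325, 301 and 331 CPM per kilobase in control 1, 2 and 3 and to 231, 233 and 233 in shDNAJB1 1, 2 and 3, or 72.8% of control, with groups that did not overlap. Of the 33 tested Kv genes, 21 were lower (63.6%, against 49.2% of all genes), and 5 of these had separate groups (15.2%, against 7.06%). Their median log2 fold change was -0.17, but 0.10 without shDNAJB1 1, so the sum reflects the abundant members more than the count. The sums of Kir, K2P, KCNQ, KCa and accessory genes overlapped between the groups.

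Kv1 genes, whose channels sit on axons, summed to 86.4, 95.5 and 110.02 CPM per kilobase in control 1, 2 and 3 and to 52.5, 72.2 and 78.8 in shDNAJB1 1, 2 and 3, or 69.7% of control. All 3 values of the second group lay below the lowest control.

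Kcna1 and Kcna2 code for the Kv1 pores that combine on axons beside the node. Kcna1 was at 88.3, 107 and 142 CPM in control 1, 2 and 3 and at 36.9, 66.0 and 56.7 CPM in shDNAJB1 1, 2 and 3. The lowest library was shDNAJB1 1. Its log2 fold change was -1.08 (SE 0.24, 95% interval -1.64 to -0.51), with adjusted p = 0.765 in edgeR's quasi-likelihood test and 0.0172 by DESeq2's Wald test. Kcna2 was at 411, 455 and 542 CPM in controls and at 257, 288 and 374 CPM in the libraries labelled shDNAJB1. The log2 fold change was -0.61 (SE 0.18). Kcna2 did not pass by either tool. Kcna1 is 1 of the 2 members that DESeq2 called.

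The Kv1 genes sit in clusters, and not all neighbours shared a direction. On chromosome 6 of mm10, Kcna5 (126532551 to 126535412), Kcna1 (126640397 to 126646384) and Kcna6 (126708329 to 126740674) lie in a row on the minus strand. Kcna6, a Kv1 pore of axons, was at 153, 154 and 149 CPM in controls and 108, 131 and 120 CPM in the libraries labelled shDNAJB1. Kcna5, a Kv1 pore known from heart, vessels and glia, was at 3.79, 3.22 and 3.59 CPM and then at 4.02, 6.21 and 4.74 CPM. The groups of Kcna1 and Kcna6 were thus separate with lower values and those of Kcna5 separate with higher values, and the difference between the genes was not tested. Of the exonic bases of Kcna6, 39.6% lie opposite exons of Gm26673, which reached 5.72 CPM at most. On chromosome 3, Kcna3 lies before Kcna2 and had a log2 fold change of 0.23 (SE 0.64). Kcna4, whose channel inactivates quickly, was at 0.26 (SE 0.30), and the median over the 6 tested Kv1 genes was -0.06, but 0.14 without shDNAJB1 1 and -0.34 without shDNAJB1 3.

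Among Kv3 genes, Kcnc1, Kcnc2 and Kcnc4 had negative log2 fold changes with overlapping groups. Kcnc1, the Kv3 gene typical of reticulata and other fast-spiking neurons, was at 341, 287 and 343 CPM in controls and 327, 240 and 233 CPM in the libraries labelled shDNAJB1. Kcnc2, which is paired with it in parvalbumin neurons, was at 155, 166 and 126 CPM and then at 160, 88.2 and 80.1 CPM. In both genes shDNAJB1 1 lay inside the control range and shDNAJB1 2 and 3 lay below it. Kcnc4 had a log2 fold change of -0.26 (SE 0.18).

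Partners of these channels were read from a list of 20 genes without a Kcn symbol, of which 19 were tested. Of the 19, 16 had negative log2 fold changes (84.2%, against 49.2% of all genes), with a median of -0.17. An adjusted p of 0.05 was passed by 0 of them in edgeR, and 3 had an unadjusted p under 0.05 (15.8%, against 6.37% of all genes). Adam23, a receptor of the secreted Lgi proteins that bind near axonal Kv1 channels, was at 217, 179 and 253 CPM in controls and 170, 134 and 127 CPM in the libraries labelled shDNAJB1. Cntn2, an adhesion molecule that holds Kv1 channels beside the node, was at 296, 353 and 369 CPM and then at 272, 287 and 256 CPM. The groups of both genes were separate with lower values, which held for 2 of the 19 (10.5%, against 7.06% of all genes). Lgi3, itself a secreted Lgi protein gene, had a log2 fold change of -0.36 (SE 0.15). Cntnap2, the other adhesion molecule of that site, was at -0.16 (SE 0.24).

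Accessory subunits of Kv1 behaved unevenly. Kcnab2 was at 410, 338 and 381 CPM in control 1, 2 and 3 and at 319, 227 and 201 CPM in shDNAJB1 1, 2 and 3. Its groups were separate, with a log2 fold change of -0.60 (SE 0.18) and, in edgeR's quasi-likelihood test, an adjusted p = 0.765. Kcnab1, a Kvbeta gene whose product speeds inactivation, was at 80.7, 47.9 and 66.0 CPM and then at 37.8, 47.4 and 15.3 CPM, so the groups were separate by less than 1 CPM. Kcnab3 was at 79.4, 47.9 and 69.7 CPM in controls and at 88.5, 43.1 and 45.5 CPM in the other libraries, which overlap. The KChIP genes code for calcium sensors of Kv4 channels. Kcnip3 was at 61.1, 53.8 and 44.6 CPM and then at 42.4, 42.0 and 42.7 CPM, and Kcnip4 had a log2 fold change of 0.01 (SE 0.17). Among BK beta subunits, Kcnmb4, the neuronal one, was at -0.28 (SE 0.32). Of the 14 tested accessory members, 8 were lower (57.1%, against 49.2% of all genes) and 6 higher. Separate groups with lower values were found for 3 of the 14, Kcnab1, Kcnab2 and Kcnip3 (21.4%, against 7.06% of all genes).

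Marker sums of 2 cell types are set beside these genes. A list of 6 genes of fast-spiking GABAergic neurons summed to 1315, 1022 and 1327 CPM of all counts in control 1, 2 and 3 and to 1128, 612 and 516 CPM in shDNAJB1 1, 2 and 3, with 5 of 6 members lower. Oligodendrocyte markers summed to 14813 to 16378 CPM in controls and to 16209, 13176 and 9134 CPM in the other 3 libraries, with 12 of 12 members lower and a median log2 fold change of -0.52. None of the defining markers of either list was at 0. In the fast-spiking list, Pvalb was not lower, with a log2 fold change of 0.08 (SE 0.64). It was at 88.4, 83.1 and 61.9 CPM in controls and at 184, 33.3 and 30.1 CPM in shDNAJB1 1, 2 and 3. Pnoc, of the same list, was at -0.01 (SE 0.39). In shDNAJB1 1, where both sums lay within the control range, Kcna1 and Kcna2 were below every control. Other lists also held lower members. Of 8 thalamus markers, 6 were lower, with a median log2 fold change of -0.66. The 8 summed to 529 to 952 CPM of all counts in controls and 371 to 931 CPM in the libraries labelled shDNAJB1, which overlap. This sum includes Slc17a6 and Calb2, with positive log2 fold changes of 0.23 and 0.36. Separate groups with lower values were found for 2 of the 8, Rora and Plekhg1, beside 7.06% of all genes. Tcf7l2 was highest in control 1, at 162, 18.5 and 48.9 CPM in control 1, 2 and 3. Prkcd was also highest there, at 94.7, 18.5 and 23.4 CPM in the same libraries. The part of the cell types in these differences was not tested.

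**Figure D3:**
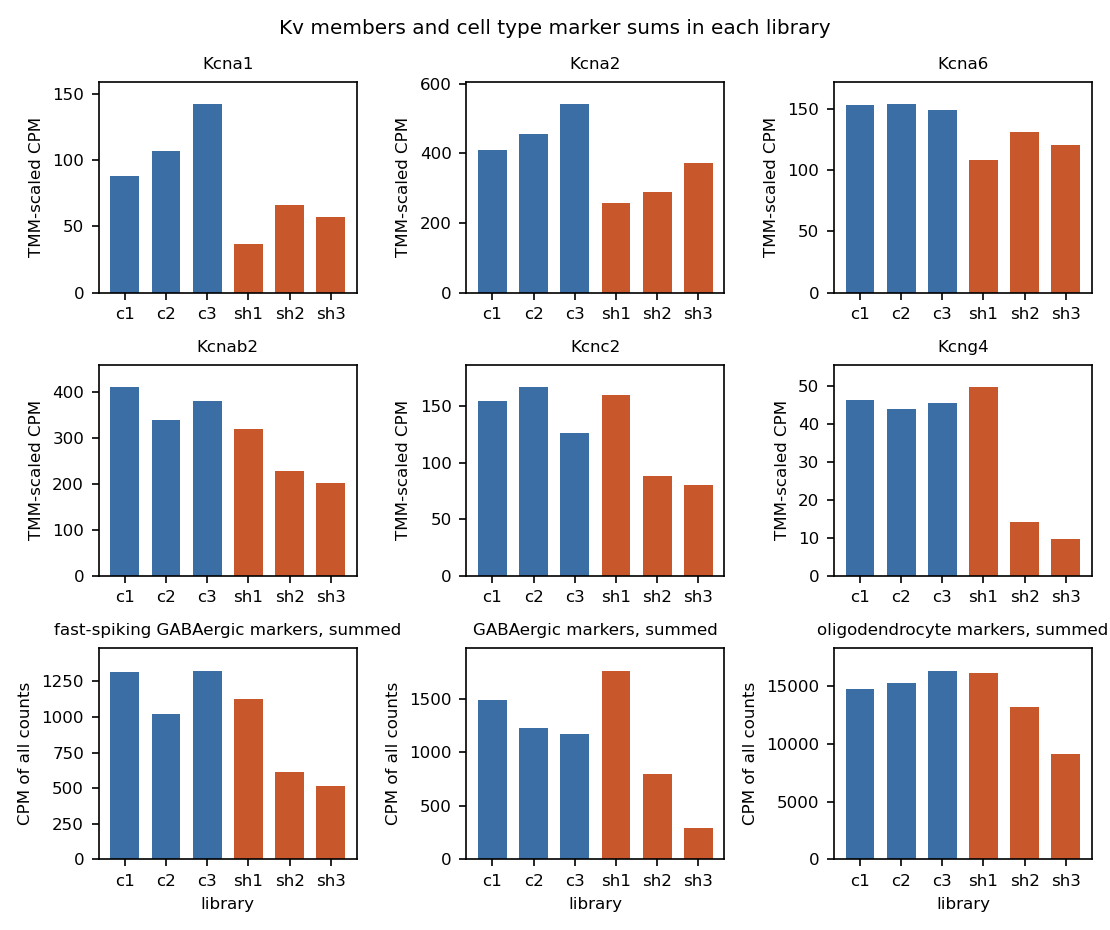
Bars give the level of 6 members (TMM-scaled CPM) and the summed level of 3 marker lists (CPM of all counts) in each library, control 1 to 3 in blue (c1 to c3) and shDNAJB1 1 to 3 in orange (sh1 to sh3), on axes from 0. Kcna1, Kcna2, Kcna6 and Kcnab2 are lower in all 3 orange bars, while Kcnc2, Kcng4 and the GABAergic sum are low in sh2 and sh3 only.

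Among Kv4, modifier and EAG, ERG and ELK genes, Kcnd1 alone had separate groups. Kv4 genes carry the A-type current that delays firing. Kcnd3, the Kv4 pore prominent in dopaminergic neurons, was at 143, 288 and 155 CPM in control 1, 2 and 3 and at 195, 173 and 105 CPM in shDNAJB1 1, 2 and 3. Kcnd2, the Kv4 pore of many forebrain and cerebellar neurons, had a log2 fold change of -0.31 (SE 0.18). Kcnd1, a less abundant Kv4 gene, was at 12.6, 12.3 and 13.1 CPM in controls and 11.0, 8.83 and 9.20 CPM in the other libraries, at -0.39 (SE 0.15). Kcnb2, a Kv2 gene whose channel lies on the cell body, was at -0.17 (SE 0.29). Kcnh2, the ERG channel gene, was at 79.7, 64.9 and 72.1 CPM and then at 58.4, 63.6 and 66.4 CPM. Kcnh4, an ELK channel gene, was near 1 CPM, with 0.52, 0.55 and 0.60 CPM in controls and 0.53, 1.11 and 1.33 CPM in the libraries labelled shDNAJB1. Modifier genes, whose products form channels only with Kv2 subunits, split evenly, with 5 of 10 lower, among them Kcns1 at -1.02 (SE 0.40) with overlapping groups. Kcng4, a modifier gene, was at 46.1, 43.9 and 45.5 CPM in controls, at 49.6 CPM in shDNAJB1 1, and at 14.2 and 9.79 CPM in shDNAJB1 2 and 3. Its log2 fold change of -0.89 (SE 0.52) averages libraries on both sides of the control range.

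KCNQ genes had groups that overlapped in all 5 members. Kcnq3, which codes for an M-current subunit of neurons, was at 132, 163 and 147 CPM in control 1, 2 and 3 and at 112, 135 and 144 CPM in shDNAJB1 1, 2 and 3. Its log2 fold change was -0.18, and the 95% interval from -0.50 to 0.14 holds 0 without showing that the levels were equal. Kcnq5, the M-current gene of cortex and hippocampus, varied more, with 17.5, 11.3 and 20.2 CPM in controls and 6.04, 24.8 and 45.5 CPM in the other libraries. Its lowest and highest values were both in that second group. Of the 5 KCNQ genes, 3 were lower and 2 higher, and 0 had an unadjusted p under 0.05.

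KCa genes were the family with a median above 0, at 0.09 over 7 tested members, although it was -0.10 without shDNAJB1 3. Kcnt1, which codes for the sodium-activated channel Slack, was at 83.4, 120 and 150 CPM in control 1, 2 and 3 and at 167, 162 and 157 CPM in shDNAJB1 1, 2 and 3. All 3 values of the second group lay above the highest control, and they spread less than the controls. The log2 fold change was 0.46 (SE 0.20, 95% interval 0.00 to 0.92) with adjusted p = 0.765 in edgeR's quasi-likelihood test, and it was 0.27 without control 1, the lowest library. Its relative Kcnt2 was at 8.67, 9.52 and 6.46 CPM and then at 9.98, 14.8 and 9.51 CPM, a log2 fold change of 0.48 (SE 0.24). Kcnma1, the large-conductance BK channel gene, was at 165, 186 and 176 CPM in controls and at 125, 201 and 251 CPM in the other libraries. Kcnn3, the SK channel gene that paces dopaminergic neurons, was at 41.0, 101.01 and 55.3 CPM and then at 51.6, 70.5 and 44.6 CPM. Control 2 stood above all others, as it did for the dopaminergic marker sum, whose part was not tested.

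Among Kir genes, 8 of 12 tested members were lower (66.7%, against 49.2% of all genes). Separate groups with lower values were found for 1 of the 12, Kcnj10, a share of 8.33% that is near the 7.06% of all genes. Kcnj10 was at 578, 446 and 421 CPM in control 1, 2 and 3 and at 346, 277 and 389 CPM in shDNAJB1 1, 2 and 3. The groups were separate, with a log2 fold change of -0.51 (SE 0.18) and, in edgeR's quasi-likelihood test, an adjusted p = 0.765. Kcnj16, whose product joins that of Kcnj10 in one channel, was at 77.5, 65.5 and 52.1 CPM and then at 51.1, 50.1 and 64.2 CPM, which overlap. Astrocyte markers, a list of 10 genes, summed to 3041.5 to 4336 CPM of all counts in controls and to 2822 to 3305 CPM in the libraries labelled shDNAJB1, with 6 of 10 members lower. The part of astrocytes and of the oligodendrocytes given above in the Kcnj10 values was not tested. Kcnj9, which lies 11892 bases before Kcnj10 on the opposite strand of chromosome 1, codes for a G protein-gated neuronal channel. It was at 65.3, 33.8 and 40.2 CPM and then at 31.6, 58.2 and 86.1 CPM. Kcnj6, its G protein-gated partner in dopaminergic neurons, was at 9.06, 35.1 and 21.3 CPM in controls and at 11.4, 17.5 and 22.9 CPM in the other libraries, with the lowest and the highest value both in controls.

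Kcnj4 had the largest fold change and rested on 1 or 2 libraries. It codes for a strong inward rectifier of forebrain neurons. It stood at 0.38, 0.45 and 0.47 CPM in controls and 0.16, 2.40 and 11.1 CPM in shDNAJB1 1, 2 and 3. The second group thus held the lowest and the highest library, and the log2 fold change of 3.40 (SE 1.13) was 1.57 without shDNAJB1 3. The forebrain marker sum followed the same order in those 3 libraries. Of the remaining neuronal Kir genes, Kcnj3 was at -0.10 (SE 0.23) and Kcnj11, the pore of the ATP-sensitive channel of dopaminergic neurons, at -0.16 (SE 0.18). The vascular gene Kcnj8 was at 0.23 (SE 0.34). Abcc8 and Abcc9, which code for the sulfonylurea receptors of Kcnj11 and Kcnj8 channels, were at -0.10 (SE 0.16) and 0.22 (SE 0.24).

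K2P genes had 8 of 10 tested members lower (80.0%, against 49.2% of all genes). Separate groups were found for 1 of the 10, which is near the 7.06% of all genes. Kcnk13, a leak channel gene of microglia and other glia, was at 16.9, 13.3 and 15.2 CPM in control 1, 2 and 3 and at 11.8, 9.40 and 7.69 CPM in shDNAJB1 1, 2 and 3. The log2 fold change was -0.65 (SE 0.19), with adjusted p = 0.765 in edgeR's quasi-likelihood test. Microglia markers, a list of 8, summed to 243 to 469 CPM of all counts in controls and to 516, 197 and 169 CPM in the other libraries, and their part was not tested. Kcnk1, the most abundant K2P gene per kilobase, was at 75.8, 57.4 and 64.6 CPM and then at 74.1, 50.2 and 48.6 CPM. Kcnk9 and Kcnk3, the acid-sensitive leak channels, had wide spreads. Kcnk9 was at 168, 149 and 200.4 CPM in controls and at 88.2, 260.5 and 208 CPM in the libraries labelled shDNAJB1, and Kcnk3 was at 30.1, 18.9 and 20.7 CPM and then at 13.3, 26.7 and 35.4 CPM.

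The promoters of Kcnj10 and Kcnk13, a pair of members with separate groups and glial expression, are shown to set side by side the bases before their starts. The sequences are from RefSeq on GRCm38.p6, the 250 bases before each start on the plus strand, chr1:172340960-172341209 for Kcnj10 and chr12:99964249-99964498 for Kcnk13, and neither window holds an annotated exon. Capitals mark the GC box, GGGCGG or its reverse complement CCGCCC, which occurs in 32.7% of all 32851 promoter windows of that length.
Kcnj10: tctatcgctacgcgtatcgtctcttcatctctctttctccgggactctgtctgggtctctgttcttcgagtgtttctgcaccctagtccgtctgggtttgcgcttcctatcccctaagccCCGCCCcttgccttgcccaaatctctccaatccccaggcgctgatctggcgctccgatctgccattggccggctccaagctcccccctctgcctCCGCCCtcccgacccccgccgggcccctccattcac
Kcnk13: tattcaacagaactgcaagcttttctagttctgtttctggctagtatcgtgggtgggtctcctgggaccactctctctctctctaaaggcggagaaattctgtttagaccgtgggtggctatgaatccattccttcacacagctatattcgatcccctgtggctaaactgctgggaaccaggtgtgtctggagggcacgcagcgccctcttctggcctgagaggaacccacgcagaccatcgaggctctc
Kcnj10 has 2 GC boxes and 62.0% G and C, and Kcnk13 has 0 and 52.8%. A core of the heat shock element, TTCNNGAA or GAANNTTC on either strand, is in 12.8% of all windows and was not found in the windows of the 8 members with separate groups that the table lists. These are descriptions of letters and not of binding.

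The extremes of the members were unevenly spread over the libraries. The library shDNAJB1 1 was the lowest one for 40 of the 81 tested members, or 49.4%, against 21.7% of all genes tested. For 21 members, or 25.9% against 7.17% of all genes, shDNAJB1 1 was lowest and shDNAJB1 3 highest, the 2 libraries that also stood at opposite ends of the forebrain list. These 21 include Kcnf1, a modifier gene of forebrain neurons, with 17.6, 8.76 and 10.4 CPM in controls and 4.74, 15.3 and 34.9 CPM in shDNAJB1 1, 2 and 3. They also include Kcnh1, the EAG channel gene, with 17.2, 13.8 and 18.1 CPM and then 6.53, 19.1 and 36.9 CPM. For 14 members, or 17.3% against 13.4% of all genes, the 2 lowest values were in shDNAJB1 2 and 3, a share near that of all genes. These include Kcng4, Kcnc1, Kcnc2, Kcnab2, Kcnab3 and Kcns3, a modifier gene with 14.7, 24.4 and 15.3 CPM in controls and 23.5, 9.44 and 8.18 CPM in shDNAJB1 1, 2 and 3.

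**Figure D4:**
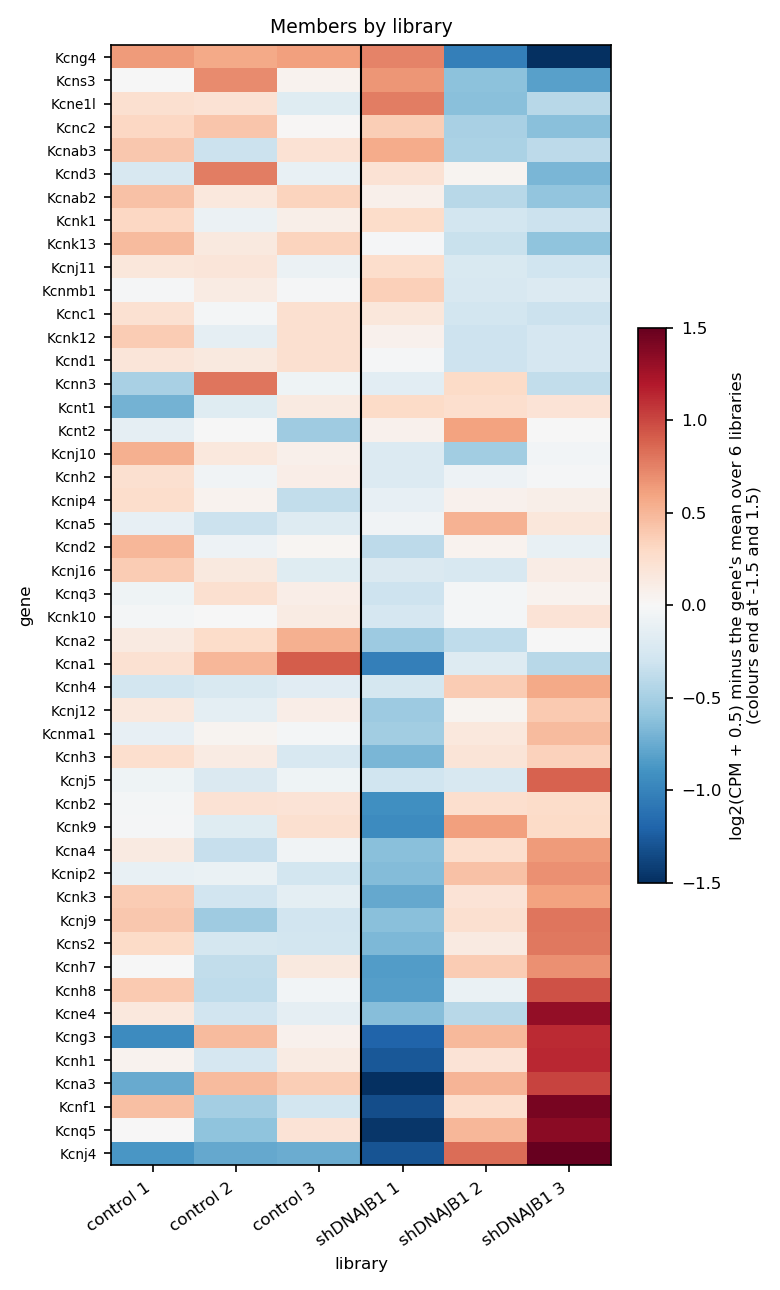
Colours give log2(CPM + 0.5) of a member in a library minus its mean over the 6 libraries, for the members named by rule or showing either pattern, ordered by shDNAJB1 3 minus shDNAJB1 1. Genes at the top, such as Kcng4, are low in shDNAJB1 2 and 3, and genes at the bottom, such as Kcnf1, Kcnq5 and Kcnj4, are low in shDNAJB1 1 and high in shDNAJB1 3.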

How the data were processed

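The 6 substantia nigra samples gave Trizol RNA that was sequenced from stranded TruSeq total RNA libraries, per the labels. What the authors deposited is a raw count for each Ensembl gene, 1 file a sample. The submitters' processing notes name mm10 and list STAR 2.5.3a, FastQC 0.11.5, DESeq 1.16.1 and Cuffnorm. How reads were counted is, like the strand setting, not given in the sources used here, so members that overlap an antisense gene are uncertain. GENCODE M21 matched 55154 of 55335 identifiers.

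The test was edgeR 4.0.16 in R 4.3.3: filterByExpr with a minimum count of 10 and total of 15, TMM, the quasi-likelihood test, and Benjamini-Hochberg over all genes at 0.05. It was also run on simulated counts, in which libraries of a group did not differ in cell type markers. The libraries here did differ in them, so that run adds no support to the results. An SE is the size of a log2 fold change over the root of its F. CPM is TMM-scaled unless called CPM of all counts. The biological coefficient of variation was 24.1%. Alternatives were DESeq2 1.42.0, limma-voom (limma 3.58.1), other scalings, filters, lengths and thresholds, a replicate block and omitted libraries.

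The members and lists were chosen with earlier results of these data known. Genes named by rule were Dnajb1, Kcna1, Kcna2, Kcnc1 and Kcnc2, the 3 members highest per kilobase in every family (Kv outside Kv1 and Kv3), the 5 per direction of smallest unadjusted p, members of counts of 5 or fewer, up to 4 partner genes and the 5 genes most like Kcnj6. Other members were named after their values were seen. Some members enter the counts and sums but are not reported here by name.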

Additional observations from a re-analysis of the deposited data

How the results depend on the processing

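Leaving out control 1 with shDNAJB1 3, and DESeq2 on all genes with a count, were chosen after seeing the data. Under every edgeR and limma-voom setting, a threshold of 0.1 included, 0 members were called. DESeq2 called 56 genes and 2 members with edgeR's filter and 35 genes and 2 members on all genes with a count. Of the 28 named members, 18 kept their sign in all 15 alternatives. Kcnk9 turned to -0.026 in limma-voom and to -0.019 with the replicate block, and Kcnip4 to -0.0072 in DESeq2 on all genes; the cause was not tested.

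Without control 1 and shDNAJB1 3 together, 5 members had an unadjusted p under 0.05, the KCa median was -0.016, and the log2 fold changes were 0.17 for Kcnab3, 0.032 for Kcnk1, -0.14 for Kcnma1 and -0.022 for Kcnq5. When each library was left out in turn, 6 to 28 members had an unadjusted p under 0.05, Dnajb1 ranged from -0.17 to 0.011, and the medians from -0.29 to 0.10 for Kv, -0.34 to 0.14 for Kv1, -0.11 to 0.090 for Kir, -0.10 to 0.17 for KCa and -0.25 to 0.014 for accessory genes. Members that changed sign ranged from -0.57 to 0.033 (Kcnab3), -0.49 to 0.080 (Kcnd3), -0.21 to 0.42 (Kcnk3), -0.49 to 0.20 (Kcnn3), -0.15 to 0.16 (Kcnip4), -0.21 to 0.44 (Kcnk9), -0.049 to 0.67 (Kcnj9), -0.10 to 0.37 (Kcnma1) and -0.081 to 1.10 (Kcnq5). With the longest transcript as the length, 9 of 28 levels per kilobase moved by more than their spread. All 10 members with separate, lower groups kept their sign when each library was left out in turn. Groups that do not overlap make this outcome close to certain in advance, so it adds no support.

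Deviations of samples with the same replicate number correlated at 0.05, -0.03 and 0.11, beside -0.16 to 0.11 for the other pairs. With 3 libraries per group, this cannot show whether a replicate number stands for a shared batch or litter. With the replicate block 0 genes were called, and 15 members had an unadjusted p under 0.05. Members under 1 CPM are limited by depth.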

Other observations

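Kcnj6, a channel gene of dopaminergic neurons, was taken as a reference, and the genes closest to its pattern were listed as a description. Over the 6 libraries, the highest Pearson r of log2(CPM + 0.5) with Kcnj6 belonged to Adam19 (0.99), Disc1 (0.99), Dram1 (0.98), Gm20492 (0.98) and Lrp1 (0.98), picked from 18870 genes. Kcnn3 had r = 0.72 and stood at rank 1522, and Kcnd3 had 0.33, at rank 6083. Slc6a3, the dopamine transporter gene, had 0.21, at rank 7584, and Th, the enzyme of dopamine synthesis, 0.15, at rank 8266. The pattern of Kcnj6 was thus not close to that of Slc6a3 and Th in these libraries. All values rest on the same 6 libraries and carry no test.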
